A study of Homo sapiens with 2 samples.

Results

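The genes described here are 47 interferon-stimulated genes, out of 18781 genes listed in an RNA immunoprecipitation (RIP) experiment from T47D cells. They were chosen by name from a list of genes that interferons induce, and that list was drawn up with the values of these same libraries in view. Their difference between the libraries is therefore a description of how the members were chosen as much as of the libraries, and no test was made of it. The T47D line comes from a breast cancer of luminal type. Lysates of T47D cells of WT genotype were incubated with protein A beads that carried either an anti-IMP1 antibody or a normal IgG control, and the RNA that stayed on the washed beads was sequenced. IMP1 is an RNA-binding protein, and the comparison asks which RNAs are recovered with it beyond those that IgG beads hold. There were 2 libraries, 1 per condition, so that no difference given here has a replicate check. Values are in FPKM, fragments scaled by transcript length and by library size, and the depth behind them is unknown.

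Interferons are secreted proteins by which a cell that senses a virus warns its neighbours. Type I interferons bind a receptor whose kinases activate transcription factors, among them STAT2, which joins IRF9 and enters the nucleus. There the complex binds the interferon-stimulated response element (ISRE) in the promoters of its target genes, whose products sense viral RNA, block its translation, degrade it or stop the virus at membranes. Interferon gamma acts through another promoter element, the GAS. Many of these genes are low in resting epithelial cells and rise together after exposure to interferon or to foreign RNA, and in some breast tumours they are high without infection.

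The ISRE core was searched as GAAANNGAAA and, for the other strand, TTTCNNTTTC. It was looked for in RefSeq promoter windows of assembly GRCh38.p14 that reach from 250 bases before to 50 after a gene's start. The stretches below show the match in members with low and with high ratios, a match found in 25 of the 39 members with a window. All are written 5′ to 3′ on the strand of the gene, with matched bases in capitals and 15 bases on either side. IFIT1 lies on the plus strand (chr10:89392492-89392544), as do IFIT3 (chr10:89327826-89327865), ISG15 (chr1:1013369-1013414), IFI27 (chr14:94110613-94110665), RSAD2 (chr2:6877617-6877656) and HERC5 (chr4:88456979-88457024). IFI6 (chr1:27672261-27672322), BST2 (chr19:17405730-17405775) and EPSTI1 (chr13:42992267-42992306) lie on the minus strand.
IFIT1: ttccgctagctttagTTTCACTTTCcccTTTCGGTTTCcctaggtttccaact
IFIT3: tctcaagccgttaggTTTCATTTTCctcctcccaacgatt
ISG15: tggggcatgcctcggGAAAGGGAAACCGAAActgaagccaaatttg
IFI27: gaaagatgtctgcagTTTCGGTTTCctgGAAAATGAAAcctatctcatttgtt
RSAD2: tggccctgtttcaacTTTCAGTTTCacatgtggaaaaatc
HERC5: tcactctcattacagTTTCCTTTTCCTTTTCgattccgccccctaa
IFI6: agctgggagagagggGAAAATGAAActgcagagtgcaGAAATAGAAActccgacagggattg
BST2: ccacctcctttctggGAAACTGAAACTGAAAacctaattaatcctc
EPSTI1: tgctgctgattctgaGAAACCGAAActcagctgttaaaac
In ISG15, BST2 and HERC5 matches overlap, so that their shared block is printed as 1 run of capitals. IFIT1, IFIT3, RSAD2 and HERC5 carry the match in these stretches on the strand opposite to the gene, and IFI27 carries 1 match on each strand.

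The libraries stood apart as a whole. The sum of all FPKM was 353885 in IMP1 and 1298363 in IgG, and 1202 genes were listed at 0 in IMP1 against 7270 in IgG. With the log2 ratio of FPKM + 0.1, IMP1 over IgG, the median over all genes was 0.40. It was -0.78 where both libraries reached 1 FPKM and -1.57 where IgG reached 10 FPKM. This scale understates the change of low genes. All 16 luminal breast markers were listed, with a summed level of 2550 FPKM in IMP1 and 844 FPKM in IgG. At least 1 FPKM was reached by 15 of them in IMP1 and by 14 in IgG, where the estrogen-regulated TFF1 and TFF3 were at 0. Of 15 markers of mesenchymal cells 14 were listed, with values from 0 to 2.36 FPKM in IMP1 and from 0 to 37.5 FPKM in IgG. In IgG 11 of these mesenchymal markers reached 1 FPKM and in IMP1 1 did, so the IgG library held both luminal and mesenchymal markers. Both libraries are labelled as T47D precipitates, and with 1 library of each a difference in the lysate and a difference between the antibodies cannot be told apart in any ratio given here.

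Most of the members were lower in the IMP1 precipitate. At least 2-fold lower were 40 of the 47, and 5 were at least 2-fold higher. Among all genes 29.9% were at least 2-fold lower and 39.9% at least 2-fold higher. Only IFI35, a leucine zipper protein, and TRIM22, a ubiquitin ligase, lay within 2-fold on this scale, TRIM22 because both of its values are below the added 0.1 FPKM. The median log2 ratio of the members was -4.00, with quartiles of -5.21 and -2.21. The ratios ran from -7.65 for XAF1 to 4.06 for IRF7, whose listing at 0 in IgG makes its ratio depend on the added 0.1 FPKM. The median was also -4.00 over the 39 members above 0 in both libraries. The levels ran from 0 to 980 FPKM in IgG with a median of 21.1, and from 0 to 110 FPKM in IMP1 with a median of 1.10. The median over all genes was 0.618 FPKM in IgG and 1.13 FPKM in IMP1, so the median member lay at percentile 89.6 of the IgG library and at percentile 49.6 of the IMP1 library. On the deposited scale the RNA sensors, the IFIT and OAS families, the membrane restriction factors, the antiviral enzymes and the PARP genes were lower in IMP1 throughout, and after rescaling to the same sum BST2 and ISG20 were not.

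**Figure D1:**
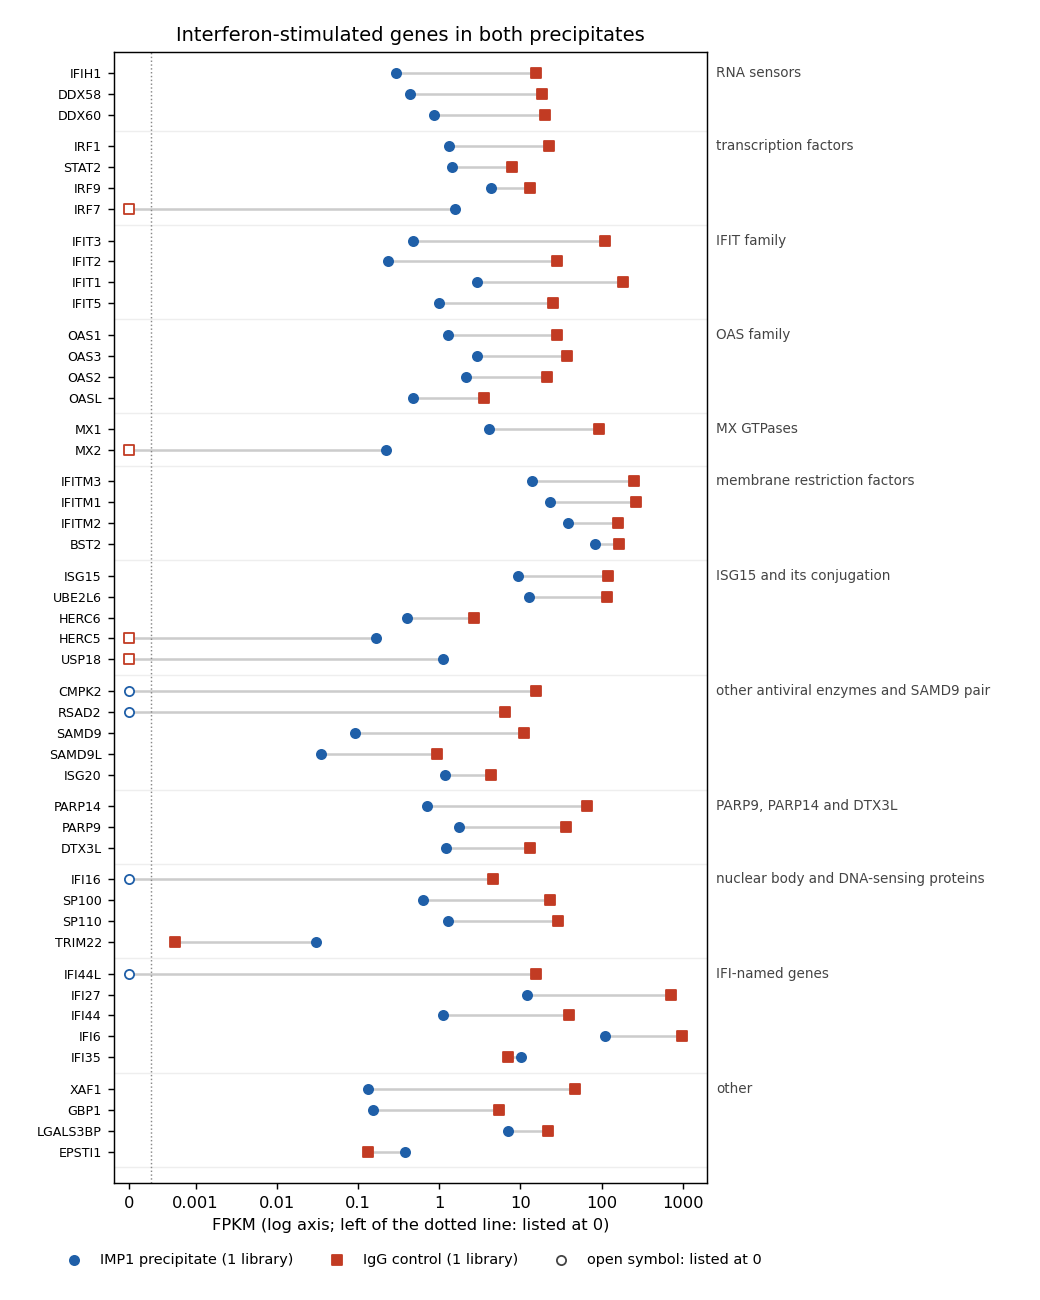
FPKM of each of the 47 members in the IMP1 library (blue circles) and in the IgG library (red squares), on a log axis, grouped by role; grey lines join both values and open symbols left of the dotted line are values listed at 0. On the deposited scale the IgG value is the higher one for 40 members, of which IRF9, BST2, ISG20 and LGALS3BP turn after rescaling to the same sum, and IRF7, MX2, HERC5 and USP18 are listed at 0 in IgG.

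Because genes with a high IgG value tend to a low ratio, the members were also set beside genes of a like level. Of the 32 members with at least 10 FPKM in IgG, all 32 were at least 2-fold lower in IMP1, where 65.1% of all such genes were. At least 8-fold lower were 28 of the 32, against 20.5% of all such genes. This second threshold was chosen after seeing the data. Of the 23 members that reached 1 FPKM in both, 22 were at least 2-fold lower, against 44.0% of all genes at that level. Of the 8 members with at least 10 FPKM in IMP1, 7 were at least 2-fold lower, against 23.4%. Since the members were chosen with these values known, the distance from the background describes the choice and is not read as a test. In the plot of all genes many members lie at the lower right of the cloud, among them IFI27, IFIT3 and XAF1.

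**Figure D2:**
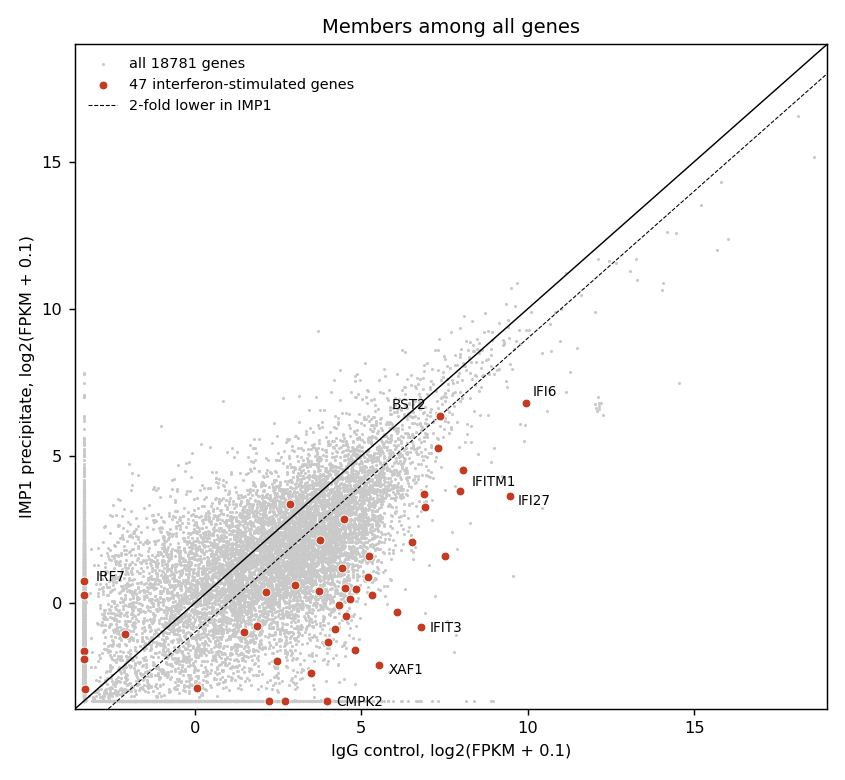
Log2(FPKM + 0.1) of all 18781 genes in the IgG library (horizontal) and the IMP1 library (vertical), with the 47 members in red; the solid line marks equal values and the dashed line a value 2-fold lower in IMP1. Members at the left and lower borders are those listed at 0 in a library and, at the left, TRIM22, at 5.64e-04 FPKM in IgG. IFI6, at 980 FPKM in IgG and 110 FPKM in IMP1, is the highest in both.

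Viral RNA is sensed in the cytoplasm by helicases. DDX58, which encodes RIG-I and recognises RNA with a 5′ triphosphate, stood at 0.437 FPKM in IMP1 and 18.5 FPKM in IgG, 42.3-fold higher in IgG. IFIH1, which encodes MDA5 and recognises long double-stranded RNA, stood at 0.298 and 15.7 FPKM, 52.8-fold higher in IgG. DDX60, a related helicase, stood at 0.858 and 20.0 FPKM, 23.4-fold higher in IgG. All of these sensors were thus under 1 FPKM with the IMP1 antibody and from 15.7 to 20.0 FPKM with IgG.

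Among the transcription factors, IRF1, an activator that is itself induced by interferon gamma, stood at 1.33 FPKM in IMP1 and 22.7 FPKM in IgG, 17.1-fold higher in IgG. STAT2 and IRF9, both part of the complex that binds the ISRE, differed less. STAT2 stood at 1.44 and 7.95 FPKM, 5.50-fold higher in IgG. IRF9 stood at 4.30 and 13.3 FPKM, 3.09-fold higher in IgG, a direction that turned when both libraries were rescaled to the same sum. IRF7, which drives a later wave of interferon production, went the other way, with 1.56 FPKM in IMP1 and a listing at 0 in IgG.

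The IFIT genes encode proteins that bind viral RNA and block its translation. IFIT1, whose product binds RNA that lacks cap methylation, stood at 2.93 FPKM in IMP1 and 184 FPKM in IgG, 62.8-fold higher in IgG. IFIT3, which stabilises the IFIT1 protein on RNA, stood at 0.472 and 110 FPKM, 233-fold higher in IgG. IFIT2 stood at 0.231 and 28.0 FPKM, 121-fold higher in IgG. IFIT5, which binds RNA with a 5′ phosphate, was the least different of the family at 0.993 and 24.9 FPKM, 25.1-fold higher in IgG. The family summed to 4.62 FPKM in IMP1 and 346 FPKM in IgG, a 75.0-fold difference and the widest of the 12 role groups of the members. IFIT1, IFIT2 and IFIT3 share 1 deposited locus on chromosome 10, from 90973326 to 91174314 in build hg19, with 5 genes listed in it.

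The OAS genes encode enzymes that answer double-stranded RNA with 2′-5′ oligoadenylates, which activate an RNase. OAS1 stood at 1.27 FPKM in IMP1 and 28.5 FPKM in IgG, 22.4-fold higher in IgG. OAS3, the largest enzyme of the family, stood at 2.91 and 37.7 FPKM, 13.0-fold higher in IgG. OAS2 stood at 2.15 and 21.1 FPKM, 9.82-fold higher in IgG. OASL, a relative without that enzymatic activity, stood at 0.477 and 3.54 FPKM, the lowest of the family in both. OAS1, OAS2 and OAS3 are neighbours that share 1 deposited locus on chromosome 12 (113344582 to 113455556, hg19). MX1, a GTPase that traps viral nucleocapsids, stood at 4.10 FPKM in IMP1 and 91.8 FPKM in IgG, 22.4-fold higher in IgG. Its paralog MX2, next to it on chromosome 21, stood at 0.219 FPKM in IMP1 and was listed at 0 in IgG. Of all genes 38.7% were at 0 in IgG, and no split of these neighbours is read from so low a value.

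The membrane restriction factors were among the most abundant members in both libraries. IFITM1, IFITM2 and IFITM3 encode related small proteins that hinder fusion of viral envelopes, and how reads were split among these paralogs is uncertain. IFITM3 stood at 13.9 FPKM in IMP1 and 248 FPKM in IgG, 17.9-fold higher in IgG. IFITM1 stood at 22.9 and 265 FPKM, 11.6-fold higher in IgG. IFITM2 stood at 38.6 and 159 FPKM, 4.12-fold higher in IgG. The order of these 3 genes in IMP1 was thus not their order in IgG. BST2, which encodes tetherin and holds budding virions on the cell surface, stood at 82.1 and 166 FPKM, 2.02-fold higher in IgG, and its direction turned after rescaling to the same sum. The group summed to 157 FPKM in IMP1 and 837 FPKM in IgG, 5.32-fold higher in IgG.

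ISG15 is a ubiquitin-like protein that is attached to other proteins during the response. It stood at 9.45 FPKM in IMP1 and 120 FPKM in IgG, 12.7-fold higher in IgG. UBE2L6, the conjugating enzyme for ISG15, stood close to it in both libraries, at 12.8 and 118 FPKM. The other enzymes of the pathway were low throughout. HERC5, the main ligase for ISG15, stood at 0.169 FPKM in IMP1 and was listed at 0 in IgG. USP18, the protease that removes ISG15 and dampens receptor signalling, stood at 1.10 FPKM in IMP1 and was listed at 0 in IgG. HERC6, a relative of HERC5, stood at 0.400 and 2.67 FPKM, 6.68-fold higher in IgG. The modifier and its conjugating enzyme were thus high in IgG. The ligase and the protease were above 0 only in IMP1, but no split is read from such low values. Of all genes 38.7% were listed at 0 in IgG.

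A further set encodes antiviral enzymes. RSAD2, or viperin, makes a chain-terminating nucleotide, and CMPK2, a mitochondrial nucleotide kinase, lies next to it in the same deposited locus on chromosome 2. RSAD2 was listed at 0 in IMP1 and stood at 6.42 FPKM in IgG, and CMPK2 was listed at 0 in IMP1 and stood at 15.7 FPKM in IgG. ISG20, an exonuclease for single-stranded RNA, stood at 1.18 and 4.32 FPKM, 3.65-fold higher in IgG on the deposited scale and at a log2 ratio of 0.01 after rescaling to the same sum. SAMD9 and SAMD9L are neighbouring genes on chromosome 7 whose products restrict poxviruses and growth. SAMD9 stood at 0.0915 FPKM in IMP1 and 11.0 FPKM in IgG, 121-fold higher in IgG. SAMD9L was under 1 FPKM in both, at 0.0347 and 0.942 FPKM. PARP14, an ADP-ribosyltransferase, stood at 0.706 and 66.8 FPKM, 94.6-fold higher in IgG. PARP9 stood at 1.75 and 36.5 FPKM, 20.9-fold higher in IgG. DTX3L, a ubiquitin ligase that acts as a partner of PARP9 and shares its deposited locus, stood at 1.21 and 13.1 FPKM, 10.7-fold higher in IgG.

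Of the proteins of nuclear bodies and DNA sensing, SP100, a component of PML bodies, stood at 0.633 FPKM in IMP1 and 23.1 FPKM in IgG, 36.5-fold higher in IgG. SP110, a relative of SP100, stood at 1.30 and 28.7 FPKM, 22.1-fold higher in IgG. IFI16, a sensor of DNA in the nucleus, was listed at 0 in IMP1 and stood at 4.62 FPKM in IgG. TRIM22 was near 0 in both libraries, at 0.0302 FPKM in IMP1 and 5.64e-04 FPKM in IgG, and no ratio is read from it.

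The most abundant members are known chiefly as markers of the response. IFI6, a small hydrophobic protein that delays cell death, stood at 110 FPKM in IMP1 and 980 FPKM in IgG, 8.91-fold higher in IgG. IFI27, of the same protein family, stood at 12.2 and 713 FPKM, 58.3-fold higher in IgG. IFI6 and IFI27 were thus of like level in IgG and of unlike level in IMP1. IFI44 stood at 1.10 and 39.9 FPKM, 36.3-fold higher in IgG, while its neighbour IFI44L on chromosome 1 was listed at 0 in IMP1 and stood at 15.4 FPKM in IgG. IFI35 was nearly level, at 10.2 FPKM in IMP1 and 7.13 FPKM in IgG. XAF1, which binds the apoptosis inhibitor XIAP, stood at 0.131 and 46.5 FPKM, 354-fold higher in IgG. It had the lowest ratio of the members with 0.1 FPKM added. With 0.01 FPKM added CMPK2, at 0 in IMP1, was lower, at -10.62 against -8.36 for XAF1. GBP1, a guanylate-binding protein that attacks vacuoles holding pathogens, stood at 0.154 and 5.41 FPKM, 35.1-fold higher in IgG. LGALS3BP, a secreted glycoprotein, stood at 7.09 and 22.2 FPKM, 3.13-fold higher in IgG, and turned direction after rescaling to the same sum. EPSTI1, named for its induction in epithelial cells by stroma, stood at 0.380 FPKM in IMP1 and 0.132 FPKM in IgG, 2.87-fold higher in IMP1. Both values are under 1 FPKM, and its log2 ratio of 1.05 with 0.1 FPKM added was 0.29 with 1 FPKM added.

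Taken as sums, the members held 356 FPKM in IMP1 and 3747 FPKM in IgG, 10.5-fold higher in IgG. As shares of all FPKM this was 0.10% in IMP1 and 0.289% in IgG, 2.87-fold higher in IgG, since the IgG library summed higher as a whole. IFI6 and IFI27 made up 45.2% of the members' sum in IgG. Without them the members summed to 233 and 2054 FPKM, 8.80-fold higher in IgG. In IMP1 IFI6 alone held 30.9% of the sum, and IFI6 with BST2 held 54.0%. At least 100 FPKM were reached by 10 members in IgG and by IFI6 alone in IMP1. Across the 47 members the levels in both libraries had a Spearman rho of 0.63, which describes these genes only, as they share 2 libraries and the same transcript lengths within each pair. In RNA recovered on beads, fewer cells of a type, less RNA per cell and lower recovery cannot be told apart.

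A listing at 0 was found for 8 members. RSAD2, CMPK2, IFI44L and IFI16 were at 0 in IMP1, 4 of 47 where 6.40% of all genes were. In IgG these genes stood between the 4.62 FPKM of IFI16 and the 15.7 FPKM of CMPK2. IRF7, USP18, MX2 and HERC5 were at 0 in IgG, 4 of 47 where 38.7% of all genes were. In IMP1 these genes stood between the 0.169 FPKM of HERC5 and the 1.56 FPKM of IRF7. A value of 0 in a file without counts can also be a failed estimate, and no fold is printed for it. The log2 ratio with 0.1 FPKM added does include such values, and they enter the counts and medians of the members. For IRF7 that ratio was 4.06, and it was 1.36 with a pseudocount of 1 and 7.30 with 0.01. Of the 5 members at least 2-fold higher, 1 was above 0 in both libraries.

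The size of the difference depended on the scale of the libraries. Rescaling the IMP1 values to a median ratio of 1, taken over genes that reached 1 FPKM in both libraries, is a log2 shift of 0.79, rescaling to the same sum without the 50 highest genes a shift of 0.57, and rescaling to the same sum a shift of 1.88. After the last of these, 32 of the 47 members were at least 2-fold lower, where 13.0% of all genes were, and 7 were at least 2-fold higher, where 63.7% of all genes were. The median of the members was then -2.20 and that of all genes 1.87. IRF9, BST2, ISG20 and LGALS3BP changed direction at this scale, to log2 ratios of 0.25, 0.86, 0.01 and 0.23, and 36 members stayed below 0. Each rescaling multiplies every IMP1 value by 1 constant, so the movement in the plot of the scales is by construction. With 0.1 FPKM added the move is smaller for values near 0. At the same sum CMPK2, at 0 in IMP1, stayed at -7.30, while IFI6 went from -3.15 to -1.28.

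**Figure D3:**
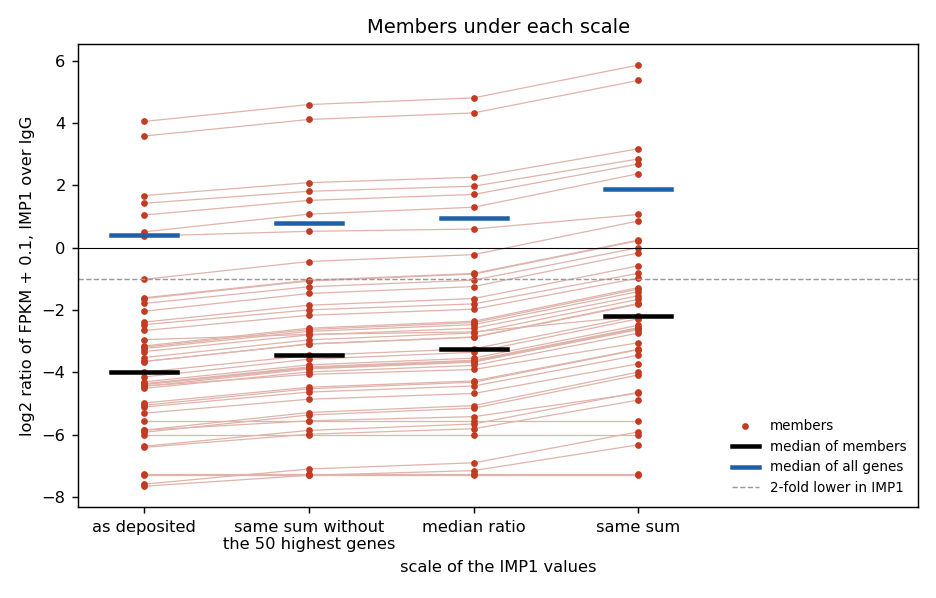
Log2 ratio of FPKM + 0.1, IMP1 over IgG, of each member (red points, joined by lines) on the deposited scale and after 3 rescalings of the IMP1 values; black bars are medians of the 47 members, blue bars medians of all genes, and the dashed line marks 2-fold lower. The median of the members moves from -4.00 to -2.20 while that of all genes moves from 0.40 to 1.87.

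Other genes of the interferon pathway were less uniform. Of 70 such genes that were listed, 42 were at least 2-fold lower in IMP1 and 15 at least 2-fold higher, with a median log2 ratio of -1.62, beside 29.9% lower, 39.9% higher and a median of 0.40 over all genes. After rescaling to the same sum 16 were lower and 27 higher, with a median of 0.20. On that scale all genes gave 13.0% lower, 63.7% higher and a median of 1.87. The shares over all genes on each scale also stand beside the counts by role below. By role, the receptors were mixed. IFNGR1, a chain of the interferon gamma receptor, stood at 1.65 FPKM in IMP1 and 42.9 FPKM in IgG, while its partner IFNGR2 stood at 9.06 and 13.9 FPKM. IFNAR1, a chain of the type I receptor, stood at 6.75 and 9.95 FPKM, and the other chain, IFNAR2, at 0.799 and 0.266 FPKM. IL10RB, a chain that the receptor of the lambda interferons shares, stood at 5.81 and 4.97 FPKM, and IFNLR1, the specific chain of that receptor, at 0.428 and 0.0541 FPKM. Of 6 listed receptor genes 1 was at least 2-fold lower and 2 at least 2-fold higher, or 5 higher at the same sum.

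Of the kinases and STATs, JAK1 stood at 3.61 FPKM in IMP1 and 10.6 FPKM in IgG, TYK2 at 6.69 and 3.93 FPKM, and JAK2 at 0.236 FPKM and a listing at 0. STAT3, which answers many cytokines, stood at 5.22 and 25.9 FPKM. Of 11 genes of sensing and induction 7 were lower and 3 higher, or 2 and 4 at the same sum. TBK1, the kinase that activates IRF3, stood at 1.60 and 59.0 FPKM, whereas IRF3, the factor that starts interferon transcription, stood at 6.17 and 0.106 FPKM, higher in IMP1. Of 4 negative regulators 2 were lower and 1 higher, or 0 and 2 at the same sum. Of 44 other interferon-stimulated genes outside the members 29 were lower and 8 higher, or 12 and 14 at the same sum. Among these GBP3, a relative of GBP1, was listed at 0 in IMP1 with 14.5 FPKM in IgG, and BATF2, a transcription factor of macrophages, stood at 0.195 and 11.1 FPKM. TRIM14, an adaptor of antiviral signalling, and TMEM140 were listed at 0 in IgG, with 2.47 and 2.12 FPKM in IMP1. Of the 12 interferon genes of the list 0 were listed.

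The NF-kB and MHC lists also held more lower than higher entries on the deposited scale, and their part in the result was not tested. Their median levels in IgG were 29.6 FPKM for NF-kB and 15.8 FPKM for MHC. All genes with at least 10 FPKM in IgG had a median log2 ratio of -1.57. For the counts that follow, all genes give 29.9% lower and 39.9% higher on the deposited scale, and 13.0% lower and 63.7% higher at the same sum. Of 12 listed genes of the NF-kB response 11 were at least 2-fold lower in IMP1 and 1 higher, with a median log2 ratio of -2.83 that became -1.04, with 6 lower, at the same sum. LCN2, a secreted protein that binds siderophores, stood at 1.77 FPKM in IMP1 and 746 FPKM in IgG, BIRC3, an apoptosis inhibitor, at 1.08 and 147 FPKM, and IL32, a cytokine, at 0.690 and 119 FPKM. The MHC antigen presentation list, which interferons also induce and which shares TAP1, PSMB8, PSMB9 and NLRC5 with the pathway list, had 12 of 20 entries lower and 1 higher, with a median of -1.66, or 7 lower and 7 higher at the same sum. B2M, the light chain of MHC class I, stood at 232 and 2474 FPKM, CD74, the invariant chain of class II, at 6.42 and 305 FPKM, and HLA-B, a class I heavy chain, at 81.0 and 153 FPKM. Broadly expressed genes had a median of -0.13, with 6 of 18 lower and 4 higher, or 0 and 11 at the same sum. ACTB, a cytoskeletal actin, stood at 716 and 1634 FPKM, PPIA, a protein-folding isomerase, at 1157 and 649 FPKM, and EEF1A1, a translation factor, at 918 and 423 FPKM.

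Markers of cell types differed as well. The mesenchymal markers had a median log2 ratio of -5.21, with 12 of 14 at least 2-fold lower in IMP1 and 1 higher, and a summed level of 4.12 FPKM in IMP1 and 174 FPKM in IgG. At least 1 FPKM was reached by 1 of them in IMP1 and by 11 in IgG, and at the same sum 11 were lower and 2 higher. DCN, a proteoglycan of connective tissue, was listed at 0 in IMP1 with 37.5 FPKM in IgG, as was LUM with 22.0 FPKM, and COL1A1, a collagen chain, stood at 0.791 and 24.4 FPKM. COL1A2, SPARC, PDGFRB and ZEB2 were also at 0 in IMP1, while FAP and TAGLN were at 0 in IgG. The luminal markers had a median of 1.32, with 10 of 16 at least 2-fold higher in IMP1 and 0 lower. PIP, a secreted protein of the breast, stood at 608 and 12.8 FPKM, AGR2, a chaperone of the secretory pathway, at 595 and 207 FPKM, and KRT19, a keratin, at 371 and 78.8 FPKM. Of 16 leukocyte markers 3 were listed. Among them the macrophage marker CD68 stood at 0.369 FPKM in IMP1 and 4.88 FPKM in IgG, and CD14, a receptor of monocytes, stood at 0.103 FPKM in IMP1 and was listed at 0 in IgG. Of 6 markers of plasmacytoid dendritic cells, which make much type I interferon, IL3RA stood at 0.188 FPKM and TCF4 at 0.0248 FPKM in IMP1, and both were listed at 0 in IgG. The part of these cell type markers in the members' values was not tested.

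**Figure D4:**
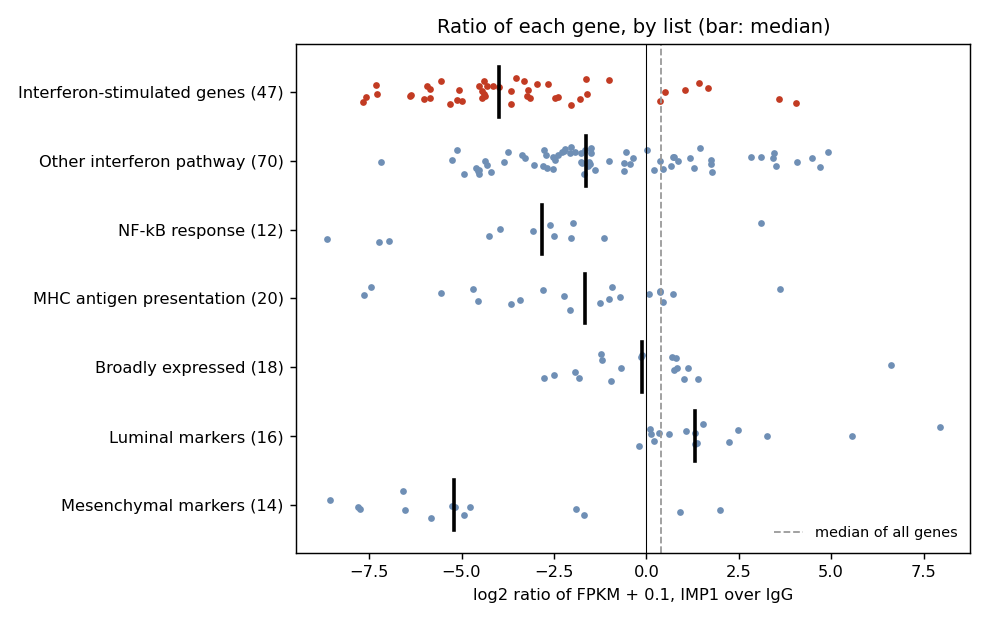
Log2 ratio of FPKM + 0.1, IMP1 over IgG, of each listed gene by list, with the number of entries in brackets and black bars for medians; values listed at 0 enter as 0.1, and the dashed line is the median of all genes, 0.40. The members (red, median -4.00) and the mesenchymal markers (median -5.21) lie farthest to the left, and the luminal markers (median 1.32) lie to the right.

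The members lie on 17 chromosomes, and 17 of them share a deposited locus with another gene. Neighbours were compared, taking the nearest listed gene on each side in another locus and in none of the interferon lists. Their median distance was 30017 bp, and the farthest, CPE from DDX60, lay 2717972 bp away, so many do not adjoin a member. Of 68 such neighbours 18 were at least 2-fold lower in IMP1 (26.5%) and 26 at least 2-fold higher (38.2%), with a median log2 ratio of 0.66. Over all genes 29.9% were lower and 39.9% higher, with a median of 0.40. RPL6, a ribosomal protein 396865 bp from the OAS locus, stood at 272 FPKM in IMP1 and 234 FPKM in IgG. Beside ISG15, the basement membrane protein AGRN stood at 4.33 and 3.97 FPKM. LIPA, the lysosomal lipase next to IFIT5, stood at 14.4 and 44.0 FPKM. The ends of the range were DNAJB4, 481474 bp from IFI44L, at 0.184 and 22.6 FPKM, and CANT1, 11608 bp from LGALS3BP, at 35.6 FPKM and a listing at 0. All of these neighbours were named after their values were seen. Of the 12 neighbours with at least 10 FPKM in IgG, 8 were at least 2-fold lower, or 66.7%, beside 65.1% of all genes at that level, and 4 of the 12 were at least 8-fold lower, beside 20.5%.

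In the promoters, the ISRE core was found in windows of 25 of 39 members that have an entry (64.1%), and in 4.38% of all 27305 genes in the table. Of the 53 windows of these members 54.7% held it, against 3.57% of all 35116 windows. The members without an entry are IRF7, USP18, MX2, OASL, TRIM22, IFITM2, OAS2 and IFIT2. At least 2 matches were found in 15 members, among them IFIT1, ISG15, IFI27 and BST2, and at least 3 in HERC5, IFI6, IFIH1, IFIT3 and IFIT5. Of the 46 matches 44 began at positions from -170 to -1 relative to a start, as the plot of positions shows. The exceptions were both in MX1, 1 beginning at position -196 and 1 at position 12. The GAS, searched as TTCNNNGAA, which reads the same on both strands, was found in 12 members (30.8%) and in 9.38% of all genes, or in 24.5% of the members' windows and 7.66% of all. Among these were IRF1, IRF9, OAS1 and IFI35, which held no ISRE core. In 5 members, BST2, EPSTI1, IFI27, IFITM1 and MX1, a GAS match overlapped an ISRE match.

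**Figure D5:**
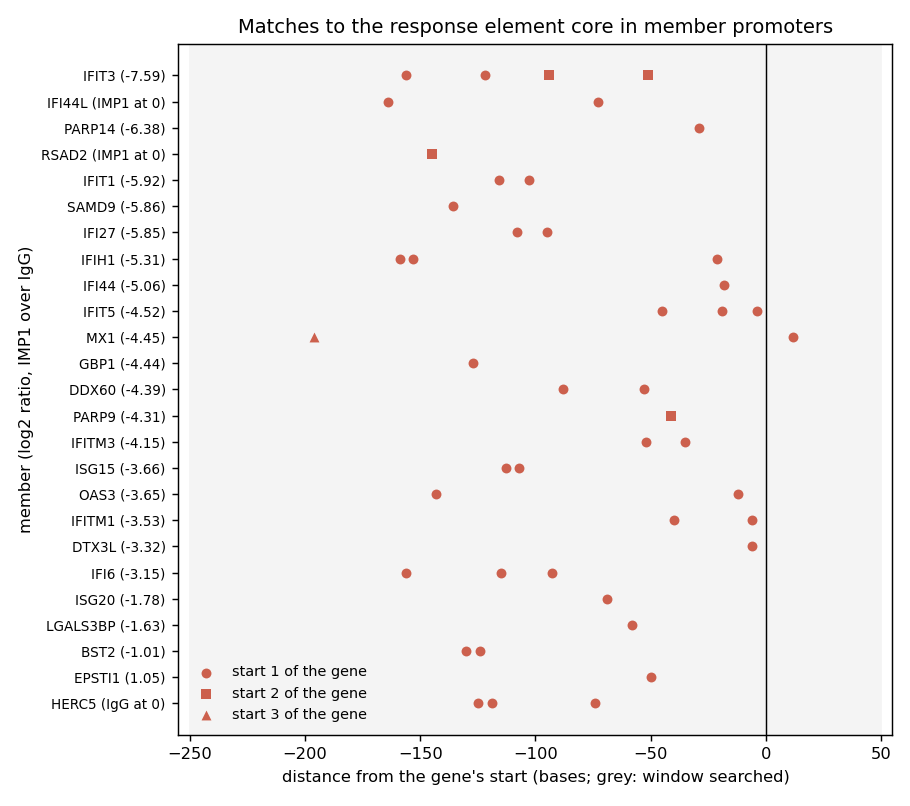
Position of the first base of each ISRE core match relative to the start of the gene, in bases, for the 25 members with a match, ordered by log2 ratio (in brackets, or the library listed at 0); the marker shape gives which of the gene's starts is meant. Of the 46 matches 44 lie from -170 to -1, in members at both ends of the order, of which HERC5 and EPSTI1 were under 1 FPKM in both libraries.

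Members with and without an ISRE match had medians close to each other. The 25 with a match had a median log2 ratio of -4.39, with 23 at least 2-fold lower, and HERC5 and EPSTI1 higher. These genes, printed above with their matches, were under 1 FPKM in both libraries, and no direction is read from them. The 14 without a match, such as XAF1, DDX58 and SP100, had a median of -4.18, with 13 at least 2-fold lower. BST2 and IFIT1 both hold a pair of matches and stood 2.02-fold and 62.8-fold higher in IgG. Over all listed genes with an entry, 38.4% of the 474 with a match were at least 2-fold lower, against 31.0% of the 11708 without. Outside the members and the pathway list it was 34.0% of 424 against 30.9%. With at least 1 FPKM in IgG and outside these lists it was 56.5% of 207 against 51.7%. A match is a description of letters and not a bound site, and the lack of one says only that these letters are not in the window.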

How the data were processed

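For 1 anti-IMP1 and 1 IgG precipitate of T47D cells the authors deposited gene-level FPKM, with a fold change, p-value and q-value that were not used. The build is hg19 per the submitters' processing notes. Aligner, counter and annotation are not given in the sources used here. A value of 1e-05 was read as 0, and lower values, found in no member, were kept. Locus starts count from 0, so 1 was added. Members and lists were chosen with earlier results of these data known. Ratios are log2 of FPKM + 0.1, and genes that differed at least 2-fold were counted. No test was run, since each condition has 1 library, and depth and intervals cannot be given. All members were named, with all receptors, kinases and STATs, the 3 lowest and 3 highest other pathway genes that reached 1 FPKM in either library, and the 3 highest genes of each other list, apart from genes that are not reported here. Promoter windows are RefSeq, GRCh38.p14, matched by symbol or Ensembl identifier for 12182 listed genes, and are not compared with hg19 positions. Alternatives were other pseudocounts, filters, rescalings and thresholds. Scripts were checked on simulated data. The tools were matplotlib 3.10.9, scipy 1.17.1, pandas 2.3.3, numpy 2.4.6 and Python 3.11.15.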

Additional observations from a re-analysis of the deposited data

How the results depend on the processing

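No paired analysis was possible because each condition has 1 library, and for the same reason no replicate could be left out. The median log2 ratio of the members (-4.00) was -3.31 with a pseudocount of 1, -4.16 with 0.01, -3.25 after rescaling to the median ratio, -2.20 to the same sum and -3.46 to the same sum without the 50 highest genes, -4.31 where either library reached 0.5 FPKM and -3.53 where both reached 1 FPKM. The 40 lower members were 22 with at least 1 FPKM in both, where 23 members were left. The 5 higher members were 2 with a pseudocount of 1, where either library reached 0.5 FPKM and at thresholds of 4-fold and 8-fold (the latter chosen after seeing the data), 0 with at least 1 FPKM in both and 1 above 0 in both. Rescaling to the same sum, which multiplies every IMP1 value by the same constant, turned IRF9 (0.25), BST2 (0.86), ISG20 (0.01) and LGALS3BP (0.23). Of the other pathway genes, 42 were lower and 15 higher. To the same sum these were 16 and 27, where 13.0% of all genes were lower and 63.7% higher. With at least 1 FPKM in both they were 27 and 1. The higher ones were 8 with a pseudocount of 1, 6 above 0 in both and 9 at 4-fold. The share of genes with an ISRE match that were lower (38.4%) was 62.5% with at least 1 FPKM in IgG and 34.0% without the members and the pathway list, and that of genes without a match (31.0%) was 51.8% and 30.9%. The unknown depth leaves values under 1 FPKM without an error.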
